A study of Macaca mulatta with 22 samples.

Results

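The genes described here encode the proteins of the cytosolic ribosome, followed through single oocytes and preimplantation embryos of the rhesus macaque. Members were chosen by name: table entries whose symbol begins with RPL or RPS and a digit (kinases of the RPS6K family left out), with RPSA, RPLP0, RPLP1, RPLP2 and FAU, and with at least 1 RPKM (read counts divided by transcript length and library depth) in at least 2 libraries. The rule found 113 entries among the 14312 of 35468 entries that pass this filter, while 26 other entries with such a name fell below it. By symbol, the 113 entries gave 79 members out of 86 names. Of these, 40 are named for the large subunit (the pseudogene name RPL23AP53 included), 31 for the small subunit, 3 for the acidic stalk and 5 are paralogs. Values of a symbol are sums over all its entries, those below the filter included. Nearest to the limit were an entry of RPS27, whose second highest library was at 1.03 RPKM, and outside it an entry of RPL39 at 0.983 RPKM.

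The study profiled 22 single cells or embryos at 9 stages, each library being 1 whole oocyte or 1 whole embryo. Oocytes were at the germinal vesicle stage (GV), metaphase I (MI) or metaphase II (MII), and the labels describe all of them as taken after death from donors that had been superovulated. Embryos were followed from the pronuclear stage (PN) over 2, 4 and 8 cells (2C, 4C, 8C) to the morula (Mo) and blastocyst (Bl). They were made by sperm injection and grown in culture, so source and stage change together between MII and PN. There were 3 libraries each at MII, PN, 4C and Mo, and 2 at every other stage. The labels name no animal, age, strain or donor, and p-values therefore measure only the spread between these libraries. Embryos from 2C on hold several cells, and RPKM values are shares of a library, so a change in RNA of these genes and a change in the rest of the RNA cannot be told apart, nor can the number of cells of a type and the RNA per cell.

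A ribosome joins a small subunit, which reads the mRNA, to a large subunit, which forms the peptide bond. Nearly every ribosomal protein is needed in 1 copy per ribosome, and the mRNAs begin with an oligopyrimidine tract (TOP) through which translation is controlled together, largely by mTOR signalling and LARP1. Oocytes store ribosomes and their mRNAs and lengthen or shorten poly(A) tails as meiosis resumes. The embryonic genome of primates becomes broadly active around the 8-cell stage, and later growth relies on new ribosomes.

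Estimated depth was 5595000 to 21435000 reads per library. Oocyte markers matched the labels as a sum. All 10 genes listed were detected from GV to 4C, with a summed level of 2847 to 11350 RPKM per library. This sum was 140.5 to 688 RPKM from 8C to Bl. Among them OOEP was at 34.4 and 96.1 RPKM at 8C and at 145, 127 and 363 RPKM at Mo. At Bl it was at 552 and 234 RPKM, against 396 and 900 RPKM at GV. Each of the other genes listed was lower in both Bl libraries than in both GV libraries. The 12 blastocyst markers summed to 1094 and 1614 RPKM in the Bl libraries and to at most 323.6 RPKM elsewhere. KRT18 alone gave 880 and 1206 RPKM of these Bl sums, and DNMT3L, GATA2 and GATA3 were also highest at Bl. NANOG was highest in morula library 1 (144 RPKM, against 130 RPKM in blastocyst library 1). POU5F1 was highest in morula library 2 (44.2 RPKM). It was at 5.59 and 11.2 RPKM in the other morulae and at 10.1 and 17.9 RPKM at Bl. KRT8, TEAD3, GATA4 and SOX17 stayed under 1 RPKM at Bl, and CDX2 and PDGFRA were lower at Bl than at GV and MI. Markers of cumulus and granulosa cells (19 genes, of which 5 to 10 were at 0 in all libraries of a stage) summed to 4.72 to 113 RPKM, and the 4 blood markers found to at most 1.83 RPKM. Library 2 of the morulae stood apart, with 4277 genes at 1 RPKM or more against 6763 and 7262 in the other morulae, although its depth was 20070000 reads. Counts of ribosomal protein symbols called in comparisons that involve morulae are therefore also given without it, as are their largest changes. Counts of single entries and of other gene lists in these comparisons include it.

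Ribosomal protein transcripts took a small, fairly even share of each library up to 4C and a several times larger one in morulae and blastocysts. Shares were taken over all 139 ribosomal protein entries, those below the filter included. These entries together held 4.39% and 4.00% of the summed RPKM in the GV libraries, 3.26% and 3.35% at MI, and 4.91%, 5.44% and 5.41% at MII. After fertilization the share was 4.35%, 7.57% and 4.24% at PN, 3.03% and 4.72% at 2C, and 4.90%, 6.84% and 5.45% at 4C. It was 8.52% and 10.1% at 8C, 20.8%, 9.19% and 24.7% at Mo, and 21.6% and 21.2% at Bl. Every library from 8C on was above every earlier library. The lowest of the morulae was library 2, which lay between the 8C libraries.

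As means ± SD the shares were 4.20% ± 0.276 at GV (n = 2), 3.31% ± 0.0636 at MI (n = 2) and 5.25% ± 0.298 at MII (n = 3). They were 5.39% ± 1.89 at PN (n = 3), 3.88% ± 1.20 at 2C (n = 2), 5.73% ± 0.9998 at 4C (n = 3) and 9.31% ± 1.12 at 8C (n = 2). At Mo the mean was 18.2% ± 8.06 (n = 3) and at Bl 21.4% ± 0.325 (n = 2). The median symbol was at 77.9 to 176 RPKM in libraries from GV to 4C, at 219.6 and 183 RPKM at 8C, at 854, 228 and 1074 RPKM at Mo and at 1396 and 845 RPKM at Bl. Symbols at 1000 RPKM or more numbered 1 to 10 in each library up to 8C. There were 34, 4 and 43 in the morulae and 47 and 35 in the blastocysts.

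**Figure D1:**
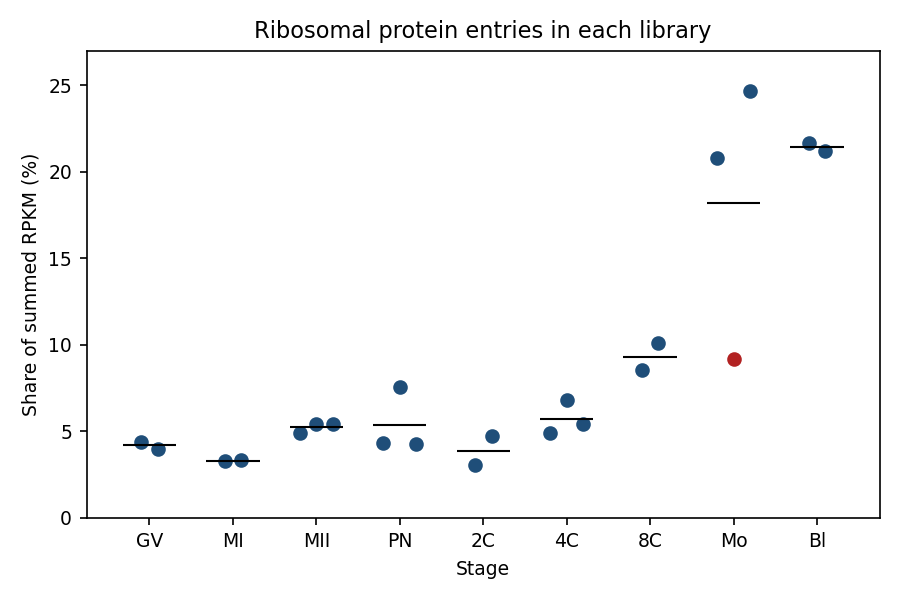
Share of summed RPKM held by all 139 ribosomal protein entries, before the filter (y axis, percent), by stage (x axis), with 1 point per library, a line at each stage mean and morula library 2 in red. Shares stay at or below 7.57% up to 4C and exceed 20% in 4 of the last 5 libraries, morula library 2 (9.19%) being the exception.

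The members did not stand at one level, although ribosomes take their proteins in equal number. In every library between 10 and 19 symbols held 50% of the summed ribosomal protein RPKM, and the interquartile range of the symbols spanned 2.41 to 4.21 log2 units. RPL24, a large subunit protein at the interface with the small subunit, was the highest symbol in both MI libraries, in both 2C libraries and in all 4C libraries, with 4027 RPKM in 4C library 2. Its stage means were 995 ± 107 RPKM at GV (n = 2), 2697 ± 1186 at 4C (n = 3) and 1915 ± 173 at Bl (n = 2).

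Some core genes were hardly seen under their symbols. How reads were assigned between near-identical copies is not given in the sources used here, so a low value need not be low expression. Of 78 core ribosomal protein genes, 72 were members; RPL29 and RPL36A had an entry below the filter, and RPL21, RPL41, RPS15 and RPS15A had no entry of that symbol. RPS27 stayed at or below 1.23 RPKM, RPS2 at or below 28.2 RPKM, RPS6 at or below 29.4 RPKM and RPL34 at or below 8.66 RPKM in all 22 libraries. RPS6, the phosphoprotein target of S6 kinase, is a single-copy component of each small subunit like RPS12, which reached 6217 RPKM in blastocyst library 1. Of the 79 symbols, 62 (78.5%) had their highest stage mean at Bl and 10 at Mo, whereas 18.7% of all tested symbols peaked at Bl. Without morula library 2 these counts were 49 at Bl and 24 at Mo.

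**Figure D2:**
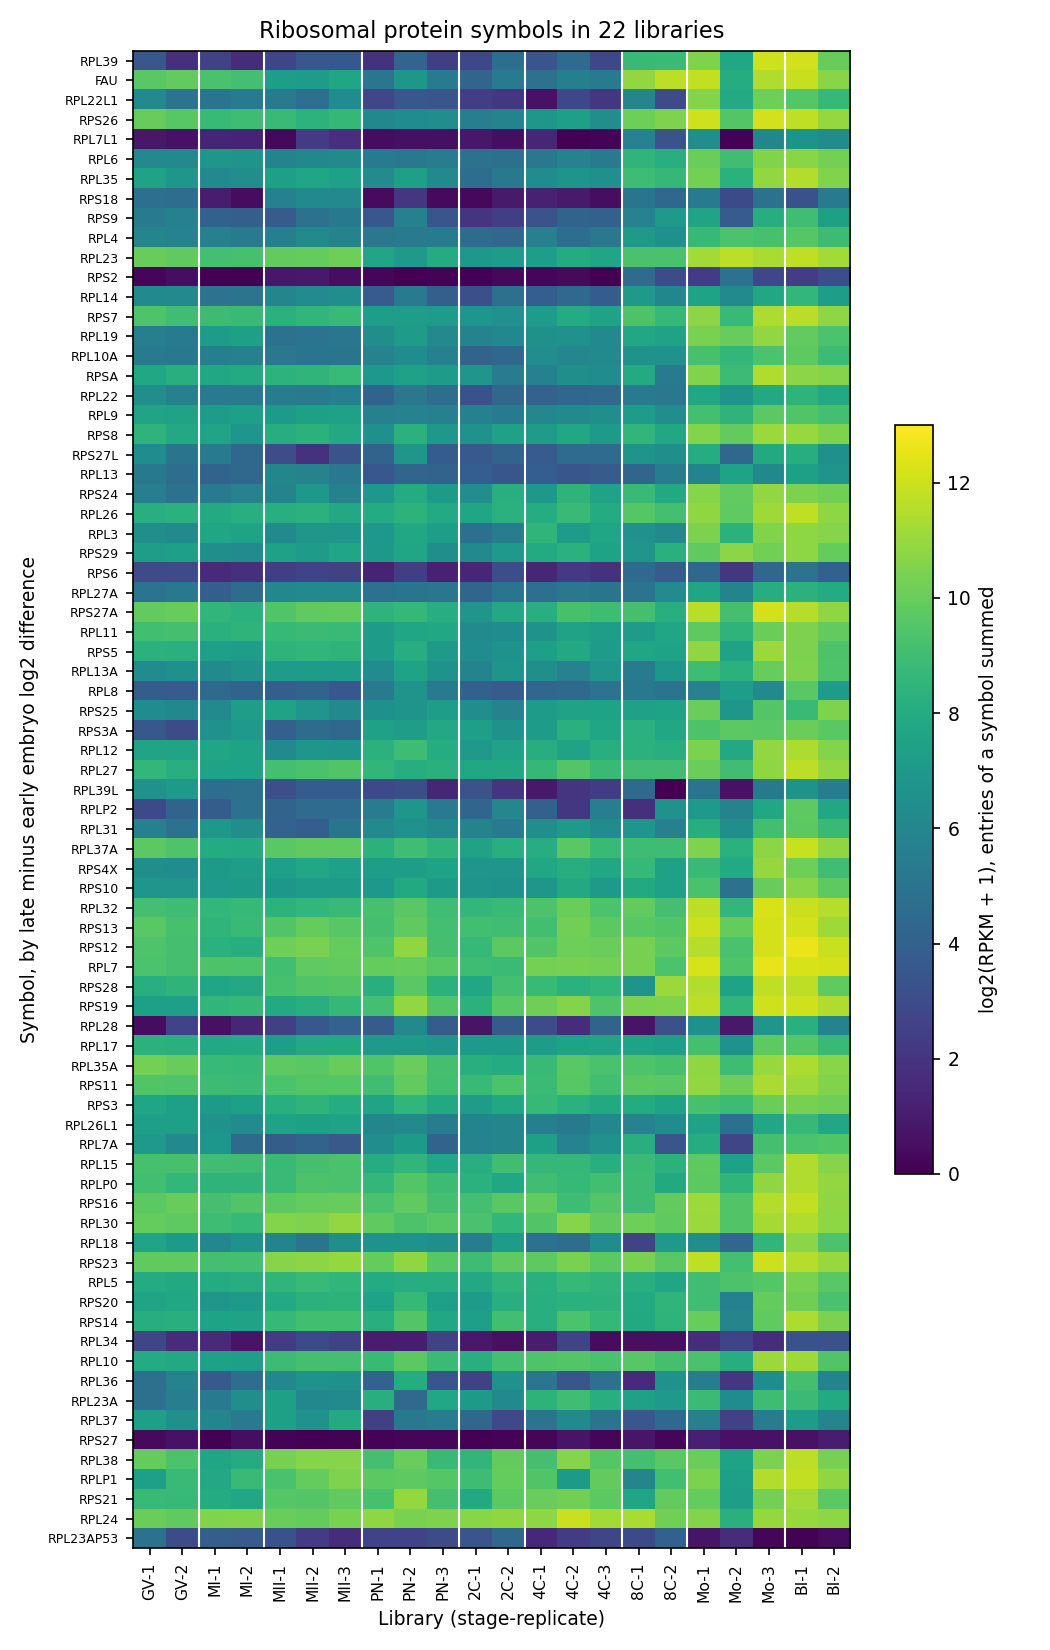
Levels of 76 of the 79 ribosomal protein symbols (rows, ordered by the late minus early embryo difference) in 22 libraries (columns, grouped by stage), coloured by log2(RPKM + 1) with the entries of a symbol summed. RPL39 in the top row is dark up to 4C and bright from 8C on, FAU below it is bright at GV and MI, darker from PN to 4C and bright again from 8C on, RPL24 near the bottom is bright in nearly all libraries and RPS27 is dark in all.

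Changes were tested with limma on log2(RPKM + 1), with the entries of a symbol summed, and log2 changes below are on that scale, which understates the change of low genes. A change was called at a 2-sided adjusted p under 0.05 over all 13104 tested symbols.

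From GV to MI few members were called. RPS3A, a small subunit protein near the mRNA exit, was at 10.5 and 7.21 RPKM in the GV libraries and at 95.1 and 131 RPKM at MI, and rose by 3.54 ± 0.45 (SE) log2 units (adjusted p = 0.00034). RPS18, a small subunit protein of the head that contacts the large subunit, was at 26.1 and 23.9 RPKM at GV and at 1.05 and 0.344 RPKM at MI. Both entries of RPS18 carry IMMRNTR identifiers, whose names in the deposited table could not be checked, so its values here and below hold for those entries. It fell by 3.97 ± 0.77 (adjusted p = 0.0169), a call that ended when any of the 4 libraries was left out and when GV and MI were fitted alone. The RPS3A call also ended with GV and MI fitted alone. These were the 2 calls among 79 symbols, against a background of 0.168% of all symbols called higher and 0.313% called lower. The median change was -0.56 for ribosomal proteins and -0.06 for all symbols.

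From MI to MII 5 members rose and 3 fell (background 1.43% higher and 7.20% lower), with a median change of 0.65 against -0.16 over all symbols. RPS18 was at 50.6, 74.2 and 68.7 RPKM at MII, above both MI libraries, and rose by 5.29 ± 0.70 (adjusted p = 0.000271). RPL38, a small peripheral protein of the large subunit known for its role in translating Hox mRNAs, was at 201 and 252 RPKM at MI and at 1307, 1614 and 1595 RPKM at MII (2.73 ± 0.71, adjusted p = 0.0214). RPL27A, RPL30 and RPL27, also of the large subunit, rose by 1.79 to 1.85 log2 units without overlap between the stages, as the naming rule required.

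The members that fell from MI to MII were RPS3A, RPL31 and RPL19. RPS3A returned to 14.8, 22.8 and 19.9 RPKM (change -2.51 ± 0.42, adjusted p = 0.00112). RPL31, which lies beside the peptide exit tunnel, was at 121 and 85.3 RPKM at MI and at 15.7, 13.5 and 32.3 RPKM at MII, and RPL19, which forms a bridge between the subunits, was at 141 and 166 RPKM and then at 28.9, 30.0 and 33.6 RPKM. Calls of RPL27, RPL27A, RPL30, RPL31 and RPL38 ended when single libraries of MI or MII were left out. With the 2 stages fitted alone 36 symbols were called. Directly from GV to MII no member was called with limma (background 0.290% higher and 9.08% lower); at an unadjusted p under 0.05 there were 1 higher and 4 lower, and 16 were called with those 2 stages fitted alone.

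From MII to PN 5 members rose and 7 fell (background 4.78% higher and 2.76% lower), with a median change of -0.42 against 0.07 over all symbols. RPS3A was at 171, 150.3 and 229 RPKM at PN, each above the MII libraries (3.19 ± 0.37, adjusted p = 3.29e-05). RPL31 (72.0, 93.6 and 70.1 RPKM), RPL8 (39.0, 103 and 41.9 RPKM), RPL12 (324, 506 and 267 RPKM) and RPL19 (84.6, 143 and 68.5 RPKM) rose by 1.58 to 1.97 log2 units. RPL12 belongs to the base of the stalk that recruits translation factors, and RPL8 lies near the peptidyl transferase centre.

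The members that fell from MII to PN included some of the most abundant ones of the oocyte. Of those below, RPL23 (552 and 601 RPKM at MI), RPS18, RPL37 and RPL14 were already lower at MI than at GV and MII. RPS3A, RPL31 and RPL19, which rose, were higher at MI than at GV and MII. This alternation is described further below, and the labels do not say whether these libraries were prepared or aligned alike. RPL23, a large subunit protein that can also bind MDM2, was at 955, 978 and 1111 RPKM at MII and at 199.6, 123 and 253 RPKM at PN (change -2.45 ± 0.34, adjusted p = 0.000158). RPS26, which lines the mRNA exit channel, went from 435, 342 and 401 RPKM to 64.1, 78.4 and 81.3 RPKM (change -2.38 ± 0.51, adjusted p = 0.00757). RPS18 was at 0.293, 3.14 and 0.238 RPKM at PN (change -5.11 ± 0.63, adjusted p = 6.24e-05). RPL37 was at 165, 95.9 and 249.6 RPKM and then at 4.50, 37.7 and 43.7 RPKM, and RPL14 at 61.1, 76.0 and 81.7 RPKM and then at 12.4, 41.0 and 14.2 RPKM.

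RPL13 and RPL9 also fell. The RPL12 call ended whichever single MII or PN library was left out. It also ended with a pseudocount of 0.1, without the filter and with the replicate number as a factor. Calls of RPL8, RPL14, RPL31 and RPL37 each ended when any of several single libraries was left out. Those of RPL8 and RPL14 also ended with library sizes rescaled by median of ratios and with the 2 stages fitted alone. The RPL19 call ended without PN library 2. PN library 2 had the highest share of ribosomal protein RPKM of the 3.

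Between PN and 4C few members changed beyond the spread of the libraries. No member was called from PN to 2C with limma (background 0.0992% higher and 0.328% lower), and at an unadjusted p under 0.05 there were 0 higher and 7 lower; the median change was -0.53 against -0.16. From 2C to 4C 2 members were called, both higher (background 0.298% higher and 0.145% lower), and the median was 0.58 against 0. RPL3, a large subunit protein close to the catalytic centre, was at 25.8 and 43.2 RPKM at 2C and at 369, 146 and 206 RPKM at 4C (2.70 ± 0.56, adjusted p = 0.0355), and RPL10A at 16.6 and 19.6 RPKM and then at 82.7, 64.5 and 70.0 RPKM (1.94 ± 0.38, adjusted p = 0.0218). Neither call held with the replicate number as a factor, with the 2 stages fitted alone, or without either 2C library.

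At the 8-cell stage a minority of the members rose, some of them strongly. From 4C to 8C 14 of 79 symbols rose and 0 fell (background 14.0% higher and 10.2% lower), a share of 17.7% near the background, and the median change was 0.18 against 0. Without 8C library 1 there were 7.

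FAU, which encodes the small subunit protein eS30 as a fusion with a ubiquitin-like protein, was at 27.6, 47.8 and 40.4 RPKM at 4C and at 1908 and 3316 RPKM at 8C. It rose by 6.02 ± 0.81 log2 units (adjusted p = 2.19e-05). Its mRNA had been at 813 and 931 RPKM at GV, 606 and 562 at MI, 148, 138 and 208 at MII, 33.1, 117 and 40.7 at PN and 18.0 and 41.7 at 2C. FAU was thus high in GV and MI oocytes, low from PN to 4C and high again from 8C on, except at 259.5 RPKM in morula library 2.

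RPL39, a very small protein in the wall of the exit tunnel, had no such early phase. It lay between 2.17 and 24.6 RPKM in all 15 libraries up to 4C and was at 434 and 466 RPKM at 8C (5.22 ± 1.004, adjusted p = 0.000776). RPS26 repeated the course of FAU in part, with 116, 161 and 84.6 RPKM at 4C and 1139 and 1453 RPKM at 8C (3.45 ± 0.57, adjusted p = 0.000201). RPL6 was at 35.9, 52.7 and 41.9 RPKM at 4C and at 359 and 291 RPKM at 8C (2.88 ± 0.41, adjusted p = 4.34e-05).

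Among the other members that rose, RPS18, RPS2 and RPL7L1 were low in level. RPS18 went from 1.26, 0.911 and 0.383 RPKM to 32.1 and 19.8 RPKM. RPS2, at the mRNA entry channel, went from 0.158, 0.241 and 0 RPKM to 22.1 and 7.12 RPKM (3.60 ± 0.57, adjusted p = 0.000117). RPS2 was under 1 RPKM in all libraries up to 4C. It passed the filter only through late libraries, so its test is a description. RPL7L1, a paralog of RPL7 with a role in ribosome assembly, went from 1.62, 0 and 0.0900 RPKM to 52.8 and 9.13 RPKM (4.04 ± 1.22, adjusted p = 0.0207), a call that ended without 4C library 2, 4C library 3 or 8C library 1. RPL22L1, RPL14, RPS6, RPL35, RPL23, RPL4 and RPL19 were also called higher.

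In 2 of 3 morulae ribosomal protein transcripts took a larger share than in either 8-cell embryo. From 8C to Mo 26 symbols rose and 1 fell (background 5.69% higher and 20.9% lower), the median change being 1.28 against -0.41 over all symbols. Without morula library 2 there were 55 higher and 2 lower, and with the 2 stages fitted alone 3 in all. With library sizes rescaled by median of ratios 45 rose and 1 fell.

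RPL22L1, the paralog of the RNA-binding protein RPL22, was at 60.8 and 7.12 RPKM at 8C and at 1555, 242 and 1108 RPKM at Mo (5.06 ± 0.84, adjusted p = 0.000177). RPSA, the small subunit protein also known as a laminin receptor, was at 246 and 39.1 RPKM and then at 1484, 487 and 2788 RPKM (3.67 ± 0.67, adjusted p = 0.000437). RPL3 was at 94.0 and 74.7 RPKM and then at 1401, 319 and 1471 RPKM (3.36 ± 0.56, adjusted p = 0.000183). In these 3 genes each morula, library 2 included, was above both 8C embryos, as the rule that named them required. Without library 2 the change was 5.87 for RPL22L1, 4.36 for RPSA and 4.08 for RPL3.

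RPL13A, which outside the ribosome takes part in silencing of inflammatory mRNAs, went from 41.2 and 114 RPKM to 506, 314 and 1010.5 RPKM, and RPL19 from 219.6 and 178 RPKM to 1338, 1000.5 and 1893 RPKM (2.78 ± 0.40, adjusted p = 3.57e-05). Without library 2 these changes were 3.36 for RPL13A and 3.00 for RPL19. The symbol that fell was RPL23AP53, a pseudogene name carried by 3 entries whose names could not be checked. It went from 6.44 and 15.7 RPKM to 0.670, 2.18 and 0.149 RPKM, and its change without morula library 2 was -3.01. Its call ended without 8C library 2.

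Morula library 2 was not low for every member. RPL23 was at 2330.5, 3389.9 and 2640.5 RPKM in the morulae, RPS3A at 658, 833 and 815 RPKM, and RPS29 at 893, 1681 and 1198 RPKM, with library 2 the highest of each. RPS10 was at 618, 28.6 and 1022 RPKM, RPS14 at 992, 59.6 and 911 RPKM and RPL7A at 264, 5.55 and 578 RPKM, with library 2 the lowest. Relative to the stage mean on the log2 scale its median member was at -1.52, against 0.56 and 0.93 in the other morulae.

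From Mo to Bl 3 members rose and 0 fell (background 13.0% higher and 2.34% lower), with a median change of 0.85 against 0.27. RPL18, a large subunit protein, was at 81.2, 18.4 and 374 RPKM at Mo and at 1703 and 648 RPKM at Bl (3.64 ± 1.07, adjusted p = 0.0261). RPL15, which lies deep in the large subunit, was at 885, 175 and 839.6 RPKM and then at 2832 and 1594 RPKM (2.06 ± 0.55, adjusted p = 0.0146). RPL8 was at 53.6, 155 and 70.9 RPKM and then at 816 and 143 RPKM, which overlap.

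These 3 calls depended on single libraries. Without blastocyst library 1 no member was called with limma, without morula library 3 there were 16, and without morula library 2 there were 2, RPL18 having lost its call. With rescaled library sizes 0 rose and 1 was called lower, and RPL15 and RPL18 were not called. Without morula library 2 the change was 1.30 for RPL15 and 2.58 for RPL18.

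**Figure D3:**
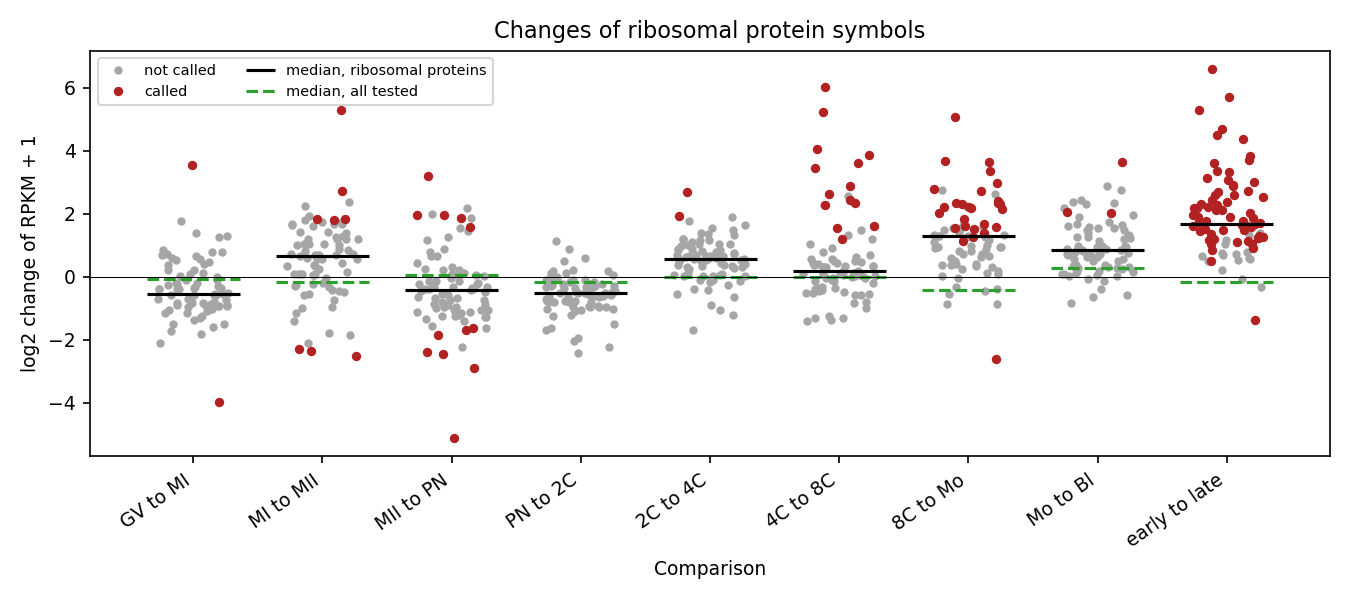
log2 change of RPKM + 1 (y axis) of each of the 79 ribosomal protein symbols in 8 neighbouring stage pairs and from early to late embryos (x axis), red where called, with the median of these symbols (black line) and of all tested symbols (green dashes). The median lies furthest above that of all symbols from 8C to Mo (1.28 against -0.41) and from early to late embryos (1.66 against -0.15), while the 4C to 8C calls are a minority up to 6.02.

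Taking the 8 early embryos (PN, 2C and 4C) against the 7 late embryos (8C, Mo and Bl), most members of both subunits were higher late. Of 79 symbols 62 (78.5%) rose and 1 fell, against 25.9% of all symbols higher and 33.0% lower, and the median change was 1.66 against -0.15. By role, 26 of 31 small subunit symbols rose and 0 fell, and 29 of 40 large subunit symbols rose and 1 fell. The symbol that fell was RPL23AP53, a pseudogene name counted with the large subunit by its prefix. All 5 paralogs and 2 of 3 stalk symbols rose. Without morula library 2 the counts were 71 higher and 1 lower.

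RPL39 went from a median of 7.85 RPKM in early embryos (2.77 to 24.6) to 1021 RPKM in late ones (219.5 to 4355), a change of 6.59 ± 0.58 (adjusted p = 1.94e-08). FAU went from a median of 40.6 RPKM (18.0 to 117) to 2769 RPKM (259.5 to 3695), a change of 5.70 ± 0.47 (adjusted p = 7.56e-09). For both genes the ranges did not overlap, morula library 2 included, which the naming rule required. Without that library the changes were 6.97 for RPL39 and 6.09 for FAU. RPS26 (79.8 to 1964 RPKM in medians), RPL6 (37.3 to 1086 RPKM) and RPL35, a protein at the tunnel exit (77.9 to 1235 RPKM), followed in size. They were the next called symbols without overlap between libraries, with log2 changes of 4.70, 4.36 and 3.84. Without morula library 2 these changes were 4.99, 4.50 and 4.09.

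Abundant genes that were not called included RPL24 (-0.34 ± 0.34, adjusted p = 0.404), RPS21 (-0.07, adjusted p = 0.911), RPLP1 (0.20 ± 0.60, adjusted p = 0.791) and RPL38 (0.49, adjusted p = 0.317). An adjusted p above the threshold does not show that their levels were equal.

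**Figure D4:**
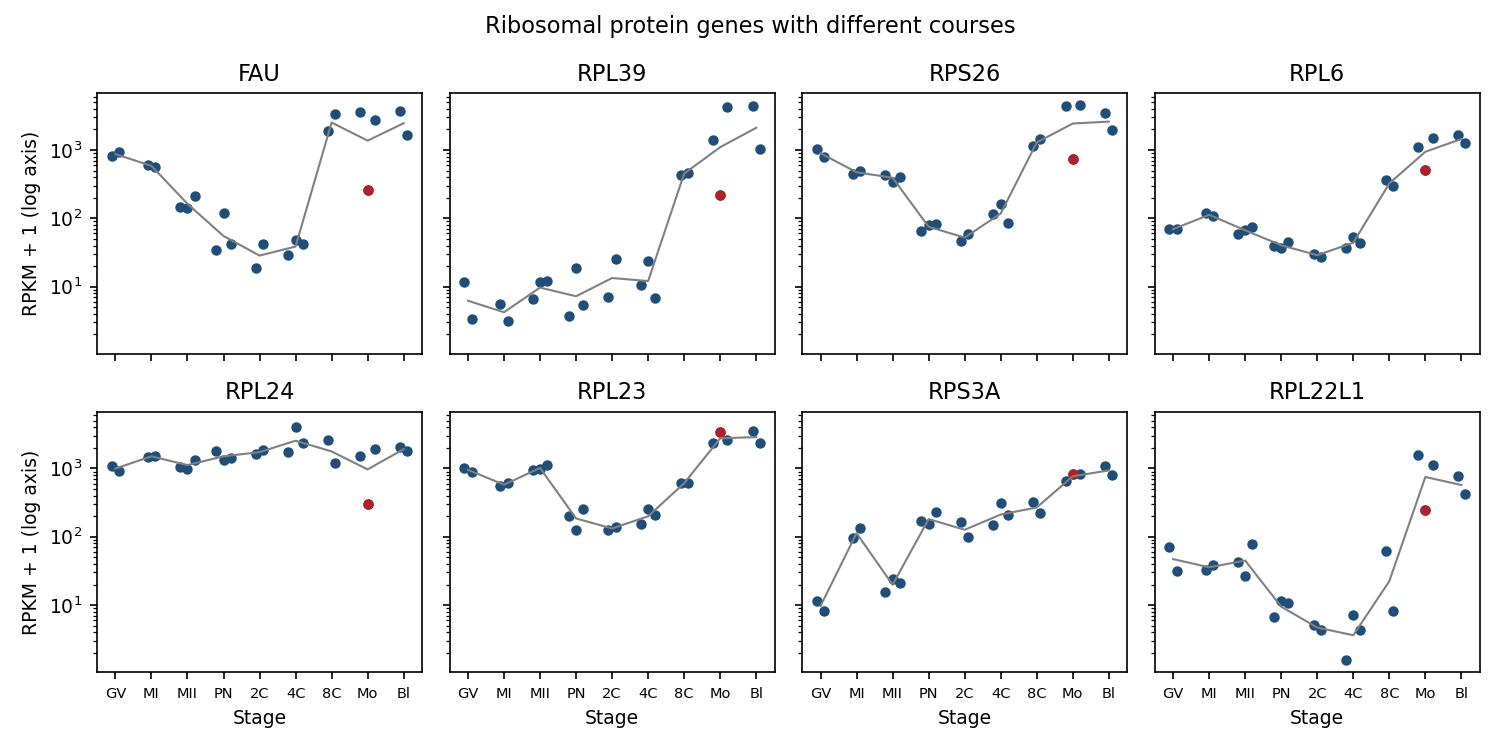
RPKM + 1 (y axis, log scale) of 8 ribosomal protein symbols by stage (x axis), with 1 point per library, morula library 2 in red and a line through the stage means of the log values. FAU and RPS26 dip between PN and 4C and return at 8C, RPL39 stays at or below 24.6 RPKM up to 4C and rises at 8C, RPL24 lies between 919 and 4027 RPKM outside morula library 2, and RPS3A is low in GV and MII libraries only.

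The acidic stalk, which binds translation factors, is built on RPLP0 with dimers of RPLP1 and RPLP2. RPLP0 was at 219 to 736 RPKM in the libraries from PN to 8C and at 852, 359 and 1837 RPKM at Mo and 2815 and 1925 RPKM at Bl (early to late 1.10 ± 0.31, adjusted p = 0.00465). RPLP2 stayed at or below 111 RPKM up to 8C and reached 869 and 217 RPKM at Bl (1.66 ± 0.65, adjusted p = 0.0348). RPLP1 stood above RPLP2 by RPKM in each of the 22 libraries, at 3586 and 1828 RPKM at Bl.

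RPS27A, the small subunit protein made as a fusion with ubiquitin, was high in GV oocytes, low at 2C and highest in morulae. It was at 935 and 998 RPKM at GV, 109 and 233 RPKM at 2C, 294, 596 and 502 RPKM at 4C and 581 and 294 RPKM at 8C. From 8C to Mo it rose to 3246, 570.3 and 4605 RPKM (2.30 ± 0.64, adjusted p = 0.0117), library 2 lying within the 8C range. At Bl it was at 3032 and 1769 RPKM.

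Other genes of the fixed panel took different courses. RPL10, which is placed last during maturation of the large subunit, was at 801 and 572 RPKM at 8C and at 2236 and 703 RPKM at Bl, and its early to late change of 0.68 ± 0.36 was not called (adjusted p = 0.113). RPL7, beside the 5S RNA region, rose late (1.45 ± 0.36, adjusted p = 0.00209) to 4723 and 4525 RPKM at Bl. RPS4X, encoded on the X chromosome, rose too (1.61 ± 0.35, adjusted p = 0.000678), from 156 to 183 RPKM at PN to 1131 and 511 RPKM at Bl. RPL36A was at 0 in all 22 libraries.

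Paralogs differed from the genes they resemble. RPL22 was at 64.8 ± 22.3 RPKM at GV (n = 2), 19.0 ± 2.63 at 4C (n = 3), 36.5 ± 3.14 at 8C (n = 2) and 293 ± 84.8 at Bl (n = 2). RPL22L1 started at a like level (50.3 ± 28.7 at GV), fell to 3.32 ± 2.76 at 4C and was above RPL22 in every morula and blastocyst library (968 ± 668 at Mo, n = 3, and a mean of 1332 without library 2). From early to late embryos RPL22 rose by 2.69 ± 0.26 (adjusted p = 7.5e-08) and RPL22L1 by 5.29 ± 0.49 (adjusted p = 3.54e-08); the difference of these changes was not tested.

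RPL39L stood above RPL39 in all oocyte libraries and below it from 4C on. RPL39L, a paralog known from male germ cells, was at 96.7 and 131 RPKM at GV, where RPL39 was at 10.7 and 2.32 RPKM, and at 24.97 and 26.5 RPKM at MI, where RPL39 was at 4.64 and 2.17 RPKM. At 8C RPL39L was at 21.2 and 0 RPKM and at Bl at 100.1 and 43.7 RPKM, below RPL39 in each of these libraries.

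RPL26L1 was at 161 and 161 RPKM at GV and at 414 and 213 RPKM at Bl, and stayed below RPL26 in every library. RPS27L, a p53 target in other cells, ranged from 2.63 RPKM at MII to 277 RPKM at Bl and rose from early to late embryos (2.52 ± 0.56, adjusted p = 0.000767), whereas RPS27 stayed near 1 RPKM or below. RPL7L1 rose late as well (4.51 ± 0.71, adjusted p = 2.45e-05), but was at 0.0650 RPKM in morula library 2. RPL3L, the muscle paralog of RPL3, did not pass the filter, with at most 2.19 RPKM.

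A set of members alternated between the early stages, being at one level in GV and MII oocytes and at another in MI oocytes and in PN, 2C and 4C embryos. This contrast was drawn after the pattern had been seen in these data, so its tests are a description. Comparing the 5 GV and MII libraries with the 10 of MI, PN, 2C and 4C, 19 symbols were higher in GV and MII and 6 lower (background 6.55% and 2.21%), the median change being 0.43 against 0.09. Without GV library 1 there were 7 higher and 3 lower, and without GV library 2 there were 11 and 2.

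RPS18 was between 23.9 and 74.2 RPKM in GV and MII (median 50.6) and between 0.201 and 3.14 RPKM in the other 10 libraries (median 0.647), a change of 4.58 ± 0.43 (adjusted p = 1.3e-06). RPS3A did the reverse, at 7.21 to 22.8 RPKM (median 14.8) and 95.1 to 307 RPKM (median 156), a change of -3.46 ± 0.25 (adjusted p = 4.02e-08). RPL23 was at 895 to 1111 RPKM against 123 to 601 RPKM. In none of these 3 genes did the 2 sets of libraries overlap, which was a condition for naming them.

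RPL37 (90.4 to 249.6 RPKM against 4.50 to 71.9), RPL14 (61.1 to 81.7 against 8.13 to 41.0) and RPL11 (423 to 566 against 74.8 to 349), a large subunit protein that joins the 5S particle and binds MDM2, were also higher in GV and MII without overlap. RPL19 (28.9 to 46.9 RPKM against 54.1 to 166) was lower. The RPL37 call ended without GV library 1.

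Part of this alternation lay between entries that share a symbol. Of the 79 symbols, 26 have 2 to 4 entries; 23 of the 113 entries carry IMMRNTR identifiers whose names could not be checked, and 25 span under 1100 bp. Reads of near-identical copies can be assigned to one or another, and how the reads were assigned is not given in the sources used here, so values of single copies are uncertain. Coordinates below are as deposited, on the build Mmul_8.0.1 named in the submitters' processing notes.

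Counted by entry instead of by symbol, 3 of the 113 rose and 2 fell at the step from GV to MI (background 0.210% and 0.377%), with 11 and 4 for MI to MII (1.49% and 6.99%) and 6 and 12 for MII to PN (4.76% and 2.91%). In 2C against PN embryos there were 1 and 1 (0.126% and 0.342%), from 2C to 4C 2 and 1 (0.377% and 0.196%), and from 4C to 8C 21 and 1 (13.9% and 10.2%). The later steps gave 27 and 7 in the morula (5.39% and 20.0%) and 4 and 0 in the blastocyst (12.0% and 2.12%). Between GV and MII 1 rose and 2 fell (0.342% and 8.97%), from early to late embryos 79 rose and 4 fell (25.7% and 32.5%), and in GV with MII 33 were higher and 7 lower (6.90% and 2.49%).

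RPS29, a zinc-binding protein of the small subunit, has an entry at chr7:112630998-112640413 (ENSMMUG00000029367) and one of 194 bp at chr4:149941515-149941708 (ENSMMUG00000008939). At GV and MII the chromosome 7 entry held nearly all of the sum, with 149.7, 156, 168, 139 and 201 RPKM against 1.63, 2.34, 1.51, 3.32 and 2.87 RPKM on chromosome 4. At MI both stood at a similar level, 45.7 and 38.5 RPKM on chromosome 7 and 41.1 and 38.5 RPKM on chromosome 4, and at 4C they were at 125, 154 and 103 RPKM and at 123, 163 and 80.7 RPKM.

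The RPS29 entry on chromosome 4 (ENSMMUG00000008939) was called lower in GV and MII (-4.28, adjusted p = 7.17e-08) and that on chromosome 7 (ENSMMUG00000029367) higher (1.30, adjusted p = 0.00871). Their sum was not called (0.37, adjusted p = 0.554). The split of reads between these entries thus set GV and MII libraries apart from MI, PN, 2C and 4C libraries. The labels do not say whether those libraries were prepared or aligned alike, and the part of this in the changes of RPS3A, RPS18, RPL19, RPL23 and other members between these stages was not tested. The chromosome 7 call ended without GV library 1, without GV library 2 and with rescaled library sizes.

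RPL19 has an entry of 4776 bp at chr16:49275061-49279836 (ENSMMUG00000004235) and shorter ones at chr2:137626138-137626833 (ENSMMUG00000000294, 696 bp) and chr4:90183124-90183719 (ENSMMUG00000016603, 596 bp). The longest entry was at 22.4 and 14.4 RPKM at GV, 136 and 159.9 RPKM at MI, 4.38, 10.2 and 3.87 RPKM at MII and 70.2, 136 and 64.2 RPKM at PN. The chromosome 2 entry was at 9.54 and 11.4 RPKM, 0.702 and 0.323 RPKM, 4.63, 3.11 and 7.54 RPKM and 0.145, 0.789 and 0.403 RPKM in the same order. They moved in opposite directions at each of these steps (GV to MI 2.97 and -2.93), and the sum moved the same way as the longest entry, although from GV to MI it was not called (1.76, adjusted p = 0.0999). The GV to MI calls of ENSMMUG00000000294 and ENSMMUG00000004235 ended with these stages fitted alone and without GV library 2 or either MI library, that of ENSMMUG00000000294 also without GV library 1 and with rescaled library sizes.

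RPS19, mutated in Diamond-Blackfan anaemia, has overlapping entries on chromosome 19, ENSMMUG00000013429 at chr19:48173945-48184431 and IMMRNTR1020 at chr19:48181181-48185333. The first was called lower in GV and MII (-1.82, adjusted p = 0.019) and the second higher (2.58, adjusted p = 0.00124), and the sum was lower (-1.57, adjusted p = 0.0401). The RPS19 call of ENSMMUG00000013429 ended without GV library 1, GV library 2 or MII library 1. For this contrast 23 entries of symbols with several entries were called. The sum was called the same way for 11 of them, the other way for 3 and not at all for 9.

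From early to late embryos 43 such entries were called, of which 35 had a sum called the same way, 3 the other way and 5 a sum not called. RPL7 rose through ENSMMUG00000005141, while IMMRNTR3999 was at 0.909 to 11.99 RPKM in early embryos and at most 6.05 RPKM in late ones (-2.08, adjusted p = 8.56e-05). RPS25 rose through its entry of 2282 bp (2.31, adjusted p = 0.000386), while that of 389 bp on chromosome 5 fell (-1.43, adjusted p = 0.00706), a call lost with rescaled library sizes.

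**Figure D5:**
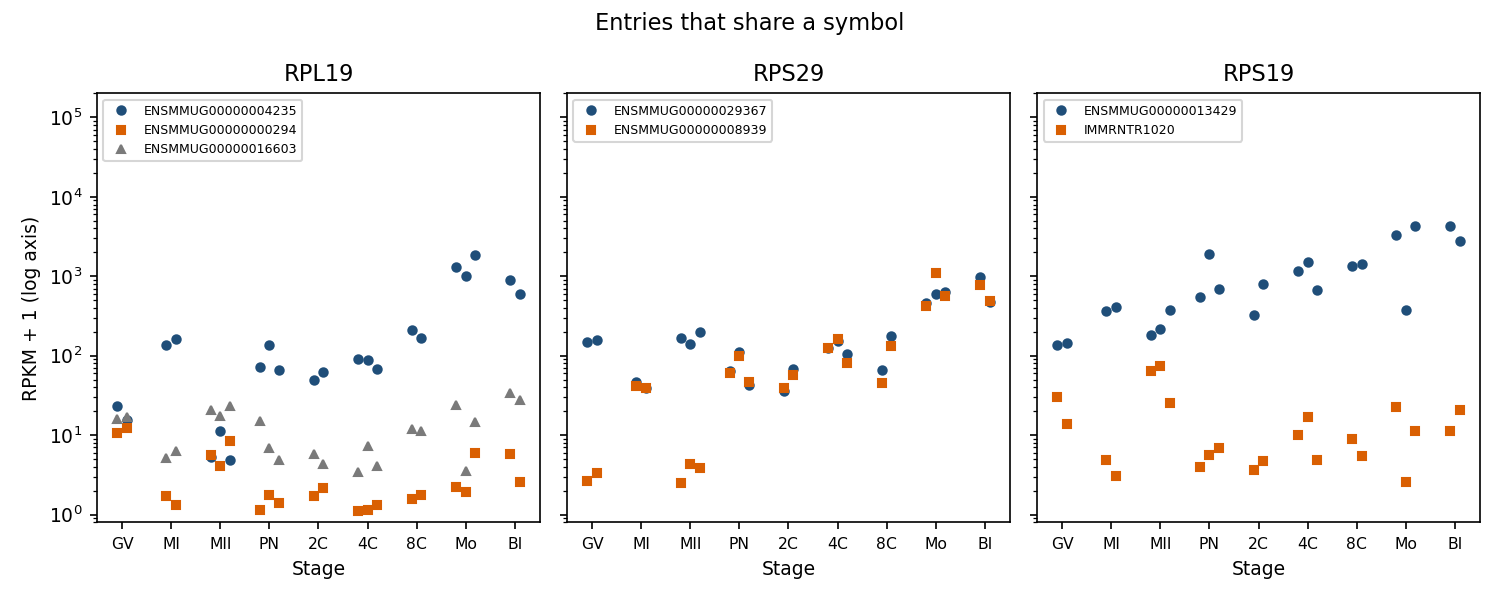
RPKM + 1 (y axis, log scale) of entries that share the symbols RPL19, RPS29 or RPS19, by stage (x axis), with 1 point per library and entry. The 2 RPS29 entries are far apart at GV and MII and close together at all other stages, and the entries of RPL19 are near each other at GV and MII and far apart at the other stages.

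Members also differed in how far libraries of one stage lay apart. The median within-stage SD was 0.69 log2 units over the members and 0.59 over all tested symbols. Among members with a mean of at least 10 RPKM the 10 with the highest SD included RPL36, RPL7A, RPL39L, RPLP2, RPS28, RPL18, RPLP1, RPL39 and RPS27L. At 8C these genes were low in library 1 and high in library 2 in several cases, with RPS28 at 105 and 2146 RPKM, RPLP1 at 59.1 and 541 RPKM, RPLP2 at 2.44 and 102 RPKM and RPL36 at 1.99 and 101 RPKM.

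RPL7A went the other way at 8C, with 296 and 9.71 RPKM, as did RPL39L with 21.2 and 0 RPKM, while RPL39 (434 and 466 RPKM) and RPS27L (104 and 86.5 RPKM) differed little there. Genes of one library share its depth and preparation, so correlations over the 22 libraries are a description. The deviations of these 10 genes from their stage means had pairwise correlations of -0.16 to 0.92 (median 0.60 over 45 pairs). Their median deviation was -1.71 in 8C library 1, 1.71 in 8C library 2 and -2.41 in morula library 2. Library depth at 8C was 20465000 and 5595000 reads, and its part in these values was not tested. Members with the smallest within-stage SD included RPL5 (0.26), RPL10A (0.27), RPL23 (0.30) and RPL4 (0.31).

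Genes that work with the ribosomal proteins were followed as lists. Of 28 other TOP mRNAs, such as elongation factors, 25 were tested. From 4C to 8C 2 rose and 1 fell, from 8C to Mo 5 rose and 0 fell, and from early to late embryos 14 rose and 2 fell, with a median change of 0.76 (all symbols -0.15). The shares of all symbols called higher and lower were 14.0% and 10.2%, 5.69% and 20.9%, and 25.9% and 33.0% for these comparisons in turn. RACK1, a scaffold protein on the small subunit, was at 59.0, 37.1 and 46.7 RPKM at 4C and at 232 and 135 RPKM at 8C (1.90 ± 0.50, adjusted p = 0.00832).

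EIF3A, the core of initiation factor 3, went from 12.5, 8.86 and 8.27 RPKM to 73.2 and 34.2 RPKM (2.25 ± 0.57, adjusted p = 0.0068). EIF4A2, an RNA helicase also linked to mRNA repression, fell from 1993, 1061 and 1784 RPKM to 399 and 572 RPKM (change -1.70 ± 0.55, adjusted p = 0.0296). The calls of EIF3A and RACK1 ended without 8C library 1 and that of EIF4A2 without 8C library 1 or 2 among others. From Mo to Bl EEF1G, a subunit of elongation factor 1, rose from 8.47, 3.20 and 40.04 RPKM to 666 and 432 RPKM (5.51 ± 0.69, adjusted p = 1.71e-05), and without morula library 2 by 4.77.

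Of 22 regulators of TOP mRNAs and growth 16 were tested, and from early to late embryos 6 rose and 4 fell (median 0.12, all symbols -0.15, background 25.9% higher and 33.0% lower). MYC, which drives transcription of ribosomal genes, was at 0.391 RPKM or less in all libraries up to 4C and at 22.3 and 22.8 RPKM at 8C (4.53 ± 0.35, adjusted p = 2.27e-08). MYCN was at 0.0260 RPKM or less up to 4C and at 5.06 and 6.80 RPKM at 8C (2.78 ± 0.30, adjusted p = 1.5e-06). MYC and MYCN passed the filter only through late libraries, so their tests are a description. MTOR, RPTOR and RICTOR, parts of the mTOR complexes, fell from early to late embryos (changes -1.27, -1.10 and -1.83). From 4C to 8C none of MTOR (0.08), RPTOR (-0.43) and RICTOR (-0.90) was called. The 6 regulators that rose from early to late embryos were MYC, MYCN, TIA1, RPS6KB1 (1.51), EIF4EBP1 (1.29) and MLST8 (0.38). MLST8 reached 1.80 and 1.53 RPKM at Bl and was at 0.316 RPKM or less elsewhere, so it passed the filter only through Bl. EIF4EBP1 was at 1.32 RPKM in PN library 2 and under 1 RPKM in all other libraries up to 8C. It needed Mo or Bl libraries to pass the filter, so the tests of MLST8 and EIF4EBP1 are a description.

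Of 30 chaperones and late assembly factors 26 were tested, with 4 called higher and 3 lower from 4C to 8C and 11 higher and 7 lower from early to late embryos (median 0.39, all symbols -0.15), against a background of 14.0% and 10.2% at the first and 25.9% and 33.0% at the second. PNO1, which holds the precursor of the small subunit rRNA, was at 0.0950 RPKM or less up to 4C and at 3.81 and 3.87 RPKM at 8C (2.27 ± 0.29, adjusted p = 1.14e-05). It passed the filter only through late libraries, so its test is a description. TSR1, another factor of the small subunit precursor, went from 0.163, 0.107 and 0.812 RPKM to 6.50 and 5.32 RPKM (2.38 ± 0.42, adjusted p = 0.000342). In contrast, TSR2, the chaperone that hands over RPS26, fell from 2.58, 2.24 and 2.99 RPKM to 0.0970 and 0.118 RPKM (change -1.70 ± 0.41, adjusted p = 0.00517). At this same step RPS26 itself rose. NMD3, the export adaptor of the large subunit, was at 219.6, 115 and 304 RPKM at 4C and at 54.9 and 59.2 RPKM at 8C, a call lost without 4C library 3, 8C library 1 or 8C library 2.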

How the data were processed

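The authors deposited 1 table of RPKM values for 22 single oocytes and embryos, with 35468 entries of which 28595 have Ensembl identifiers. Per the labels' protocols, whole cells were lysed, cDNA was made with the SMARTer Ultra Low Input kit and libraries with a TruSeq DNA kit. The genome build is Mmul_8.0.1 per the submitters' processing notes; aligner, counting and annotation release are not given in the sources used here. Symbols came from the name table (15556 identifiers matched), otherwise from the deposited table. Members, lists and contrasts were chosen with earlier results of these data known.

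Depth was estimated from entries spanning under 350 bp, where low RPKM values are whole multiples of 1 read (2588 of 2910 values, 88.9%, within 0.05 of a whole number). Entries of a symbol were summed. Symbols (13104) and entries (14312) at 1 RPKM or more in at least 2 libraries entered limma (version 3.58.1, run under R 4.3.3) as log2 of RPKM plus a pseudocount of 1. The model gave every stage its own mean, which left 13 residual degrees of freedom, and variances were moderated with trend and robust settings. Benjamini-Hochberg adjustment ran over all features of a comparison; 0.05 (2-sided) was the threshold for a call. Scripts were tested on simulated data.

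Genes were named by rule: for each comparison the 5 largest called changes in each direction without overlap between libraries, entries of a symbol called in opposite directions, a fixed panel with paralogs, and of each other list the 2 members with the smallest adjusted p in each direction at the 8C and Bl steps. Names outside this rule were chosen after their values were seen. They include RPL24, RPS29 as a sum, RPL5, RPL10A, RPL4, RPS10, RPS14, RPS12, RPS21, RPL34 and RPL38 late. MTOR, RPTOR, RICTOR, TIA1, RPS6KB1 and EIF4EBP1, the single oocyte and blastocyst markers and the members named for their spread also belong to them.

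Alternatives were a pseudocount of 0.1, no filter, median-of-ratios scaling, the compared stages fitted alone, the replicate number as a factor and each library left out. Leaving morula library 2 out of comparisons between other stages was chosen after seeing the data. No sample was left out. A few members count in the totals but are not reported here by name. Tables and plots used matplotlib 3.10.9, pandas 2.3.3 and numpy 2.4.6 under Python 3.11.15.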

Additional observations from a re-analysis of the deposited data

How the results depend on the processing

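Of 90 named results, 43 kept their direction and their call in every setting tried, and none reversed. The fit of only the compared stages called, among entries, 43 (MI to MII), 18 (GV to MII), 6 (8C to Mo) and 0 each in GV to MI, PN to 2C, 2C to 4C and Mo to Bl. Among symbols it called 36 (MI to MII), 20 (MII to PN), 16 (GV to MII), 3 (8C to Mo), 0 each in GV to MI, 2C to 4C and Mo to Bl, and 40 between GV with MII and MI, PN, 2C and 4C. Median-of-ratios scaling called 53 entries (8C to Mo), 1 (GV to MII) and 1 (PN to 2C), with 46 symbols (8C to Mo) and 1 (Mo to Bl). It moved the median change of all symbols from -0.16 to -0.02 (MI to MII), -0.16 to 0 (PN to 2C), -0.41 to -0.26 (8C to Mo), 0.27 to 0.10 (Mo to Bl), -0.22 to -0.05 (GV to MII) and -0.15 to 0.10 (early to late).

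Without the filter 7 symbols were called from MII to PN, 1 from PN to 2C and 1 from 2C to 4C. A pseudocount of 0.1 gave 1 entry from PN to 2C, 0 from GV to MII and 1 symbol from 2C to 4C. Without morula library 2 in any stage, entries called numbered 29 from MI to MII, 38 from MII to PN, 4 from PN to 2C, 5 from 2C to 4C, 34 from 4C to 8C and 9 from GV to MII. Symbols then numbered 19 from MI to MII, 29 from MII to PN, 3 from PN to 2C, 4 from GV to MII and 38 between GV with MII and the other early stages.

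The replicate block called 1 entry from PN to 2C, 1 from GV to MII and 0 symbols from 2C to 4C; in no other comparison did it move a count by over 1.5 times. Replicate numbers showed no common pairing of libraries across stages. Deviations of same-numbered libraries correlated at -0.18 to 0.33 (median 0.01, 78 pairs). Those of other numbers correlated at -0.33 to 0.25 (median -0.01, 136 pairs). A pairing within only some of the stages was not tested.

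With each library of the stages left out in turn, entries called ranged from 3 to 3 (GV to MI), 4 to 13 (MI to MII), 12 to 15 (MII to PN), 0 to 2 (PN to 2C), 0 to 3 (2C to 4C), 11 to 20 (4C to 8C), 26 to 63 (8C to Mo), 2 to 18 (Mo to Bl), 0 to 3 (GV to MII), 76 to 95 (early to late) and 17 to 40 (GV with MII). Symbols ranged from 1 to 1, 3 to 5, 6 to 8, 0 to 0, 0 to 2, 7 to 13, 20 to 57, 0 to 16, 0 to 0, 58 to 72 and 10 to 25 in the same order. A stage left with 1 library was assumed to vary like the others. The cause of these differences was not tested. Libraries of 5595000 reads or more and 2 or 3 per stage limit what can be called.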
